A study of Mus musculus with 6 samples.

Results

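Cytosolic ribosomal protein genes were compared between lineage-depleted bone marrow of Stag2KO and Stag2WT mice. They were taken by symbol, with no measured value in the rule: every row of the count table whose symbol starts with Rpl or Rps followed by a digit, together with Rpsa, Rplp0, Rplp1 and Rplp2. The set itself was chosen with earlier results of these data known. Rows with a -ps tag (163 pseudogene rows) and the S6 kinases were left out. This gave 85 of the 33924 gene rows, of which 51 belong to the large subunit by name and 33 to the small subunit. The remaining one, Rps19bp1, encodes a protein that binds Rps19 and is not part of the ribosome. Of the 85, 76 are the standard ribosomal proteins and are called core genes here, and 8 are paralogs of them: Rpl3l, Rpl7l1, Rpl10l, Rpl22l1, Rpl36al, Rpl39l, Rps27l and Rps4y2. Rps4y2 is listed by RefSeq under the current symbol Rps4l as a transcribed pseudogene. Every member but Rpl10l, which had 1 read over all libraries, entered the test, so 84 were tested.

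RNA was sequenced from 6 libraries of mouse marrow, 3 labelled Stag2KO and 3 labelled Stag2WT, from which cells carrying lineage markers had been removed with antibody-coated magnetic beads. Stag2 is an X-linked gene for one of the proteins of cohesin, a ring-shaped complex that forms chromatin loops and holds sister chromatids together. The sources used here give genotype alone, with no word on the allele, a Cre driver, age, sex or whether libraries came from separate animals, so p-values measure the spread between these 6 libraries, which may be technical. The library kit is described for other cell populations and not for these samples.

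A ribosome is built of a small subunit, which reads the mRNA, and a large subunit, which joins amino acids, and most of its proteins are present in a single copy per particle. The mRNAs of these genes are among the most abundant in growing cells, and most begin with a run of pyrimidines (a 5′ terminal oligopyrimidine tract, or TOP) through which mTORC1 controls their translation. In marrow, loss of 1 copy of several of them causes Diamond-Blackfan anaemia, in which red cell precursors fail, and free Rpl5 and Rpl11 bind Mdm2 and so stabilise p53.

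Reads assigned to genes ranged from 29435651 to 37722325 per library. Stag2 itself was at 169, 187 and 183 CPM in the Stag2KO libraries and 338, 329 and 324 CPM in the Stag2WT libraries (log2 fold change -0.88, SE 0.06, adjusted p = 0.000278; edgeR's quasi-likelihood test), so every library labelled Stag2KO was below every one labelled Stag2WT while keeping part of the signal. CPM values are a gene's reads scaled to library size with edgeR's TMM factors. Of 15708 genes tested, 3333 (21.2%) passed an adjusted p of 0.05, 1647 lower (10.5%) and 1686 higher (10.7%) in Stag2KO, with a median log2 fold change of 0.01. The libraries also differed in make-up. The 12 macrophage markers summed to 0.0311% to 0.0440% of gene reads in Stag2KO and 0.121% to 0.140% in Stag2WT, and all 12 fell. The 10 B-cell markers all fell too, with sums of 0.0105% to 0.0118% against 0.0250% to 0.0354%, and 7 of 8 stroma markers fell. Neutrophil granule and maturation genes summed to 1.89% to 2.48% against 1.58% to 1.70%, with 5 of 14 higher, and 7 of 11 eosinophil and basophil markers rose while 2 fell. Erythroid markers summed to 0.253% to 0.329% against 0.324% to 0.535%, with 4 of 13 lower. Of 11 stem and progenitor markers 3 rose, of 7 megakaryocyte markers 2 rose and of 7 T-cell markers 4 fell. Every marker on these lists had reads in each library, mature-cell markers included. Between 11.1% and 12.8% of a Stag2KO table total fell outside annotated genes, against 8.81% to 10.1% in Stag2WT. The nuclear long non-coding RNA Neat1 was at 636, 545 and 589 CPM in the Stag2KO libraries and 407, 298 and 288 CPM in the Stag2WT libraries and rose (0.83, adjusted p = 0.00637).

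Ribosomal protein mRNAs took up a slightly smaller part of the gene reads in Stag2KO, and estimates were negative for nearly all of the genes. Together the 85 genes received 4.61%, 4.48% and 4.42% of gene reads in the Stag2KO libraries (4.50% ± 0.0984, SD, n = 3) and 4.79%, 5.69% and 4.90% in the Stag2WT libraries (5.13% ± 0.494, SD, n = 3). The groups did not overlap, but the gap between the highest Stag2KO and the lowest Stag2WT library was smaller than the spread within Stag2WT. Stag2WT replicate 2 stood well above the other 5 libraries, and without it the difference was -0.340 percentage points in place of -0.623. Large subunit genes took 2.52% ± 0.0393 of reads in Stag2KO and 2.88% ± 0.276 in Stag2WT, and small subunit genes 1.98% ± 0.0667 and 2.25% ± 0.218 (SD, n = 3 each). In a bulk sample, fewer cells of a type that is rich in these mRNAs and less of them per cell cannot be told apart. The cell type markers above moved with genotype as well, and their part in the difference was not tested.

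**Figure D1:**
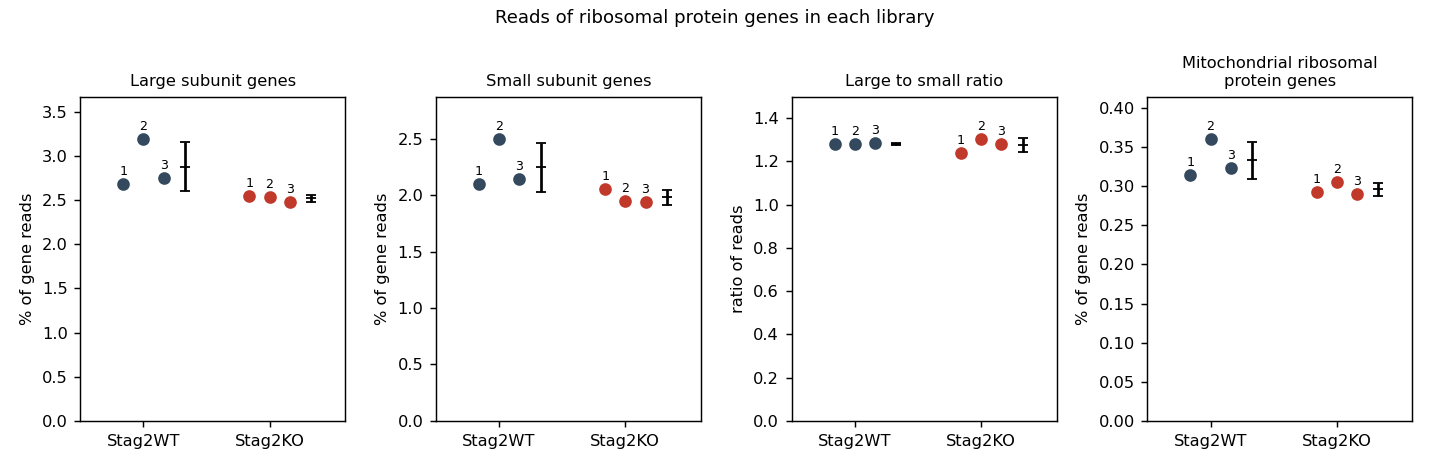
Reads of ribosomal protein genes as a percent of all gene reads in each library, for each subunit and for the mitochondrial ribosomal proteins, and the ratio of large to small subunit reads, with numbered points for libraries and bars for the group mean and SD (n = 3). Stag2WT replicate 2 is the highest library in all 3 shares, at 3.19% for large and 2.50% for small subunit genes, while the read ratio lies between 1.24 and 1.30 in all 6 libraries.

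The balance between the subunits did not separate the groups. Large subunit genes received 1.24, 1.30 and 1.28 reads per small subunit read in the Stag2KO libraries (1.27 ± 0.0318, SD, n = 3) and 1.28, 1.28 and 1.29 in the Stag2WT libraries (1.28 ± 0.00391, SD, n = 3). The groups overlapped. The difference of -0.00637 was smaller than the spread within Stag2KO and changed sign, to 0.0105, without Stag2KO replicate 1, the library with the lowest ratio. No test was made on these sums.

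Of the 84 tested genes, 82 had a lower estimate in Stag2KO, but most of them did not pass an adjusted p of 0.05. By edgeR's quasi-likelihood test with Benjamini-Hochberg adjustment over all genes, 12 fell, 1 rose (Rpl3l, where 10.7% of all genes rose) and 71 did not pass. These 12 are 14.3% of the 84, against 10.5% of all tested genes called lower, so the share of calls was close to the background. Before adjustment 41 members were lower with a p under 0.05, where 18.5% of all tested genes were lower at that threshold. The median log2 fold change was -0.22 over the members, beside 0.01 over all tested genes. It was -0.23 for the 50 large subunit genes tested, of which 6 fell, and -0.19 for the 33 small subunit genes, of which 6 fell. In the 76 core genes, 75 estimates were negative and 9 passed. The Stag2KO mean of a core gene was at the median 86.5% of the Stag2WT mean and at the lowest 63.9%, for Rpl29.

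**Figure D2:**
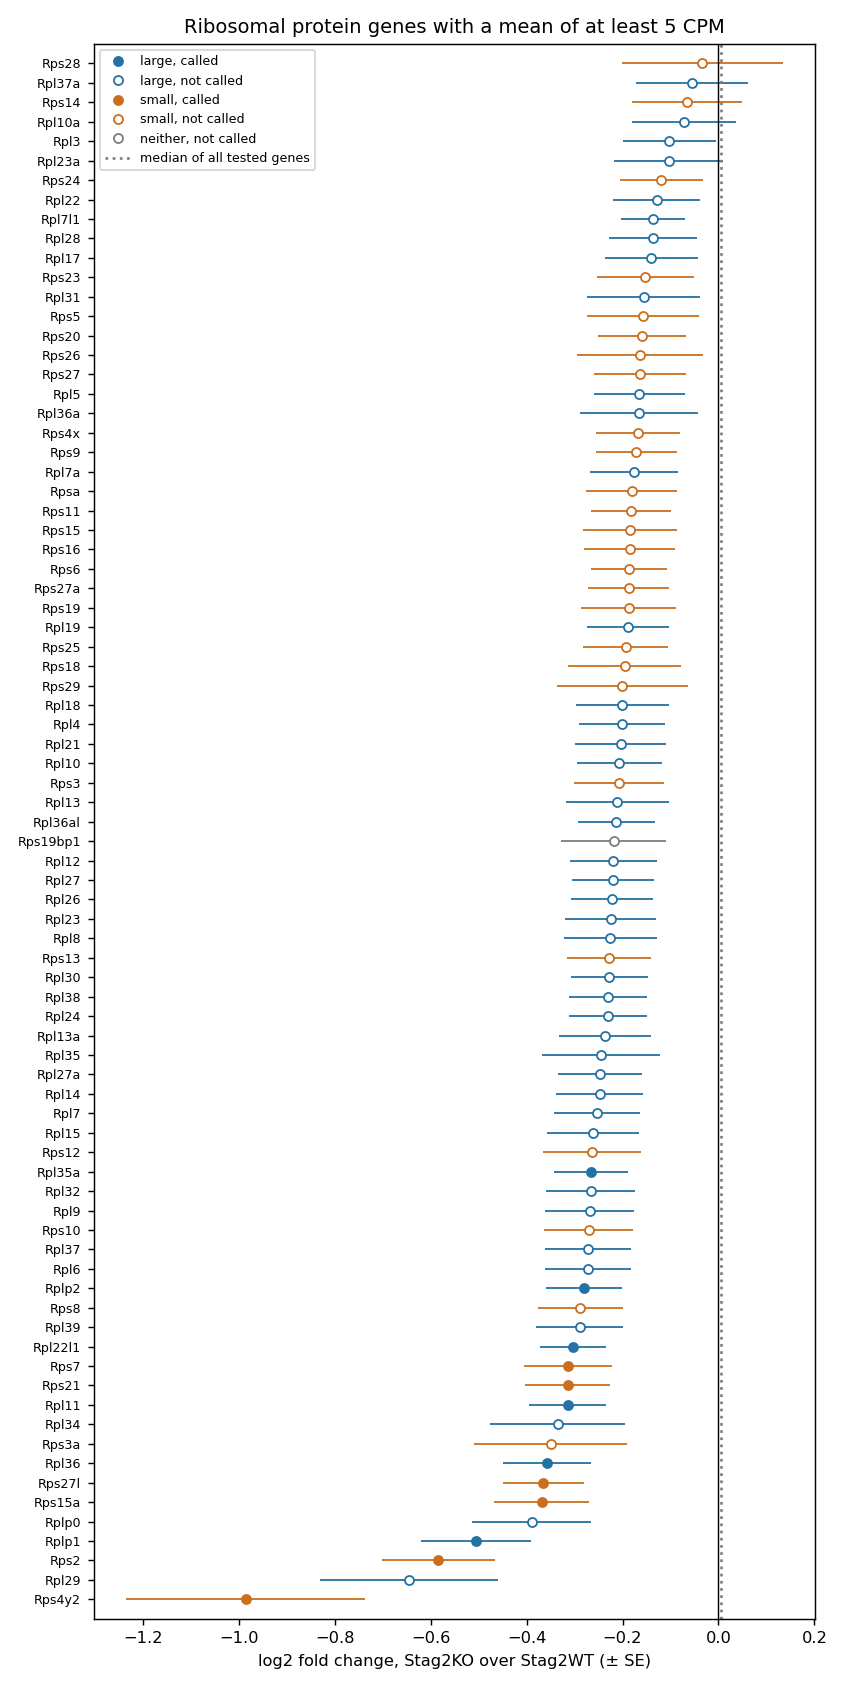
Log2 fold change (Stag2KO over Stag2WT, with SE) of 80 of the 82 members with a mean of at least 5 CPM, by subunit, with filled points for adjusted p under 0.05. Nearly all points lie between -0.4 and 0, and the filled ones are at the more negative end.

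One library of each group stood apart from its replicates. In 49 of 84 members (45 of 76 core genes) every Stag2KO library was below every Stag2WT library, where 21.2% of all tested genes had that order. The reverse order was met by 1 member, against 22.2% of all genes. In 33 of the 34 members whose groups overlapped, all but Rpl39l, Stag2KO replicate 1 was above the lowest Stag2WT library, while Stag2KO replicate 2 was so in 2 of them and replicate 3 in 1. Without Stag2KO replicate 1 the Stag2KO libraries were all below the Stag2WT libraries in 81 of 84 members, beside 26.1% of all tested genes. The number in that order was 49 without Stag2WT replicate 2 (24.2% of all genes) and was 81 without both libraries (29.5%). These libraries were picked after the data were seen, and the order was not counted without any of the others. Leaving out the highest Stag2WT library cannot change whether the Stag2KO libraries lie below the lowest one. For members in which that library was Stag2WT replicate 2, an unchanged order was therefore fixed in advance. Stag2WT replicate 2 was the highest of the 6 libraries for 78 of 84 members, beside 4224 of the 15708 tested genes. It exceeded the mean of the other Stag2WT libraries by a median of 0.26 on the log2 scale over the core genes, within the narrow limits of 0.19 for Rpl19 and 0.37 for Rps2. The excess of Stag2KO replicate 1 over the other Stag2KO libraries was by contrast uneven, with a median of 0.12 and limits of -0.29 for Rplp0 and 0.54 for Rps28. Marker sums moved with these libraries too: Stag2WT replicate 2 was the highest for 9 of 13 erythroid markers, and Stag2KO replicate 1 had the highest sums of neutrophil (2.48%) and of eosinophil and basophil markers (0.739%). The latter list was mixed: Stag2KO replicate 1 was the highest Stag2KO library for 7 of its 11 genes. Relative to gene reads it was the lowest Stag2KO library for the basophil and mast cell genes Mcpt8, Cpa3 and Ms4a2. The part of these cell types in the levels of the ribosomal protein genes was not tested.

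**Figure D3:**
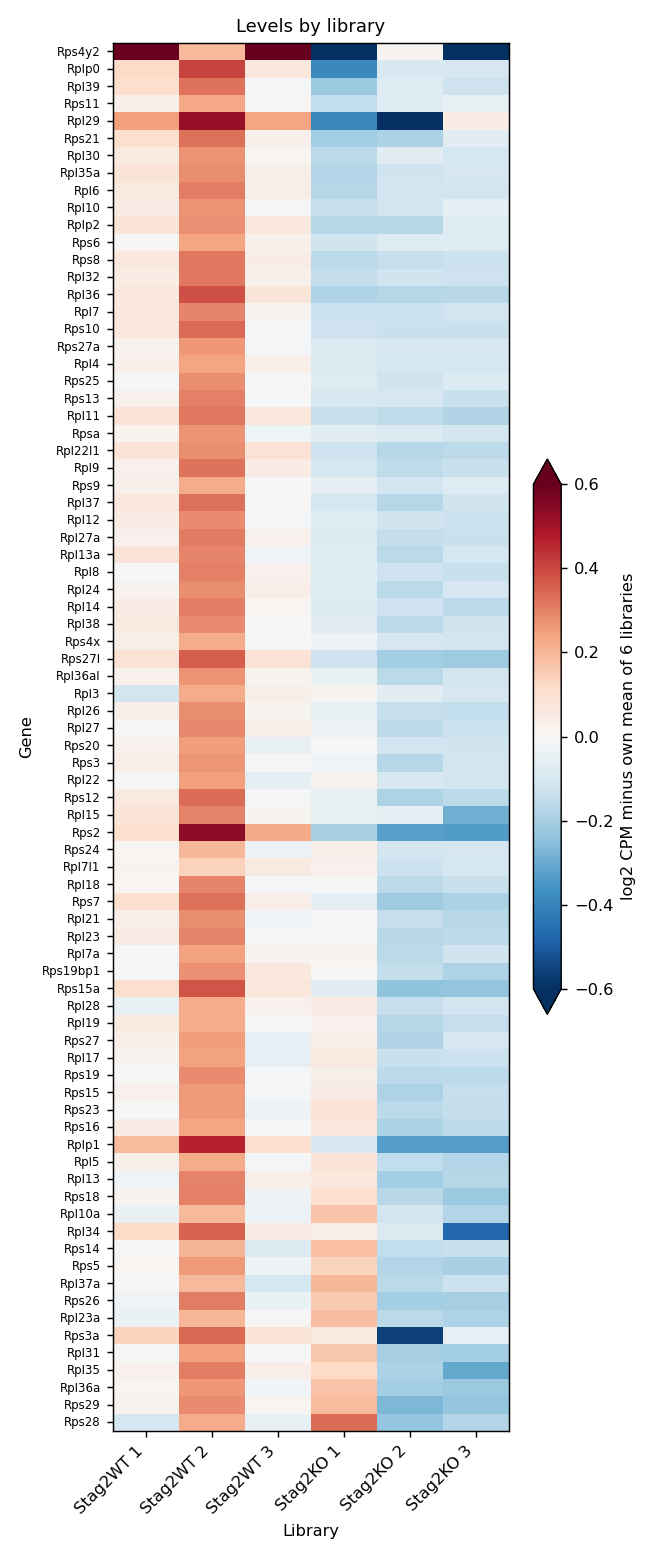
Log2 CPM of 80 of the 82 members with a mean of at least 5 CPM minus its own mean over the 6 libraries, ordered by the excess of Stag2KO replicate 1 over the other Stag2KO libraries. The Stag2WT 2 column is the reddest for nearly all genes, Stag2KO 2 and 3 are blue nearly throughout, and Stag2KO 1 turns from blue at the top to red at the bottom.

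Left out in turn, these libraries moved the size of the difference in opposite directions. Without Stag2WT replicate 2 the median log2 fold change was -0.13 for large and -0.10 for small subunit genes, with 7 members lower (6.39% of all tested genes were). Without Stag2KO replicate 1 it was -0.25 and -0.26, with 5 lower (6.13% of all). Without both, a setting chosen after the data were seen, it was -0.16 for each subunit, with 5 lower (4.32% of all) and 83 of 84 estimates negative. The number called lower was 3 without Stag2KO replicate 2 (5.65% of all genes), 2 without Stag2KO replicate 3 (6.28%), 7 without Stag2WT replicate 1 (7.67%) and 11 without Stag2WT replicate 3 (8.18%). With all 6 libraries, DESeq2 called 30 members lower (13% of all genes), and scaling by total gene reads gave 8 (8.38%). With the share of reads outside annotated genes as a covariate, edgeR's quasi-likelihood test called 0 members (0.146% of all genes were called lower) and 67 genes in all. In that fit 2 members had an unadjusted p under 0.05, 54 of 84 estimates were negative, and the medians were -0.07 and -0.03. That share did not overlap between the groups, so its part and that of genotype cannot be told apart with these libraries.

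**Figure D4:**
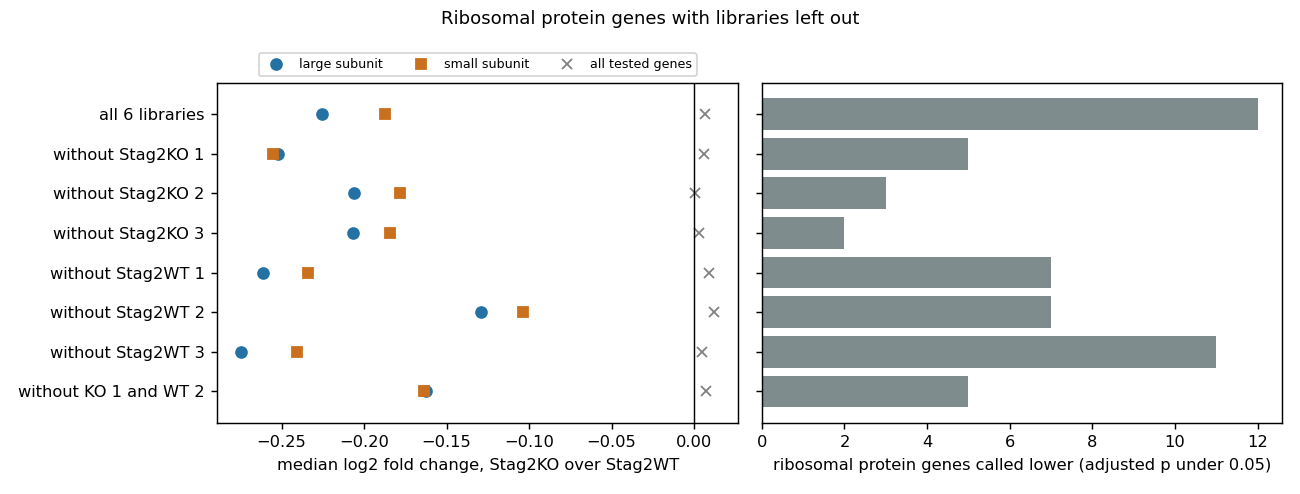
Left, the median log2 fold change of large subunit genes, small subunit genes and all tested genes with each library left out; right, the number of ribosomal protein genes called lower (adjusted p under 0.05) in the same fits. Both subunit medians stay below 0 in every fit and come nearest to it without Stag2WT replicate 2, and the count falls from 12 to between 2 and 11 when 1 library is left out. The share of all tested genes called lower falls from 10.5% to between 5.65% and 8.18% in the same fits.

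Promoter sequences show what these genes share beyond their products, and are given for 7 called genes and, for contrast, for 3 members with small estimates. RefSeq's table for the GRCm38.p6 build held the region around the first listed start of 64 of the 85 genes, from 250 bases before to 50 after it. The counts were made on another build (mm9), so these coordinates apply to the sequences only. A run of at least 8 C or T on the sense strand touching the 20 bases around the start was present in 27 of 64 members (42.2%) and in 3651 of 27025 promoters of all genes (13.5%). The same search for A or G found 3 members (4.69%) and 14.7% of all promoters. CGGAAG, the core of the motif bound by ETS factors, stood on either strand of the whole entry in 43 of 64 members (67.2%) and 17.2% of all promoters. Each sequence runs 5′ to 3′ from 40 bases before to 15 bases from the listed start on, and capitals mark the C or T run. The called genes with a run were Rps15a (chr7:118116133-118116187 on the minus strand), Rps27l (chr9:66946046-66946100 on the plus strand), Rpl22l1 (chr3:28805468-28805522 on the plus strand) and Rplp2 (chr7:141447611-141447665 on the plus strand).
Rps15a: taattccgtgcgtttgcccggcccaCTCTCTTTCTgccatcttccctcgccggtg
Rps27l: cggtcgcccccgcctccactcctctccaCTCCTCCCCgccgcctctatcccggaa
Rpl22l1: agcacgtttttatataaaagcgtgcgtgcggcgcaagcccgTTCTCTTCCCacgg
Rplp2: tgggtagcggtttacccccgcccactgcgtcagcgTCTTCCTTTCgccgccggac

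Called genes without such a run included Rps2 (chr17:24720023-24720077 on the plus strand), Rpl11 (chr4:136053379-136053433 on the minus strand) and Rps7 (chr12:28635939-28635993 on the minus strand), and 3 members that did not pass and had small estimates were Rps28 (chr17:33824548-33824602 on the minus strand), Rpl37a (chr1:72711220-72711274 on the plus strand) and Rpl10a (chr17:28328431-28328485 on the plus strand).
Rps2: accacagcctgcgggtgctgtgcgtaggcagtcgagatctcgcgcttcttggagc
Rpl11: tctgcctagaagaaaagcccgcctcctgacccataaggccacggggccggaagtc
Rps7: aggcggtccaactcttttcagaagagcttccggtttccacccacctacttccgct
Rps28: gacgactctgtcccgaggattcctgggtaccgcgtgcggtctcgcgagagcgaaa
Rpl37a: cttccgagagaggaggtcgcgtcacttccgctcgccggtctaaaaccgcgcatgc
Rpl10a: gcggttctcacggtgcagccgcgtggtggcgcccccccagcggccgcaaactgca
The median log2 fold change differed little between members with and without these letters. The median log2 fold change was -0.23 in the 27 tested members with a run (4 called lower) and -0.22 in the 36 without one (5 called lower). It was -0.22 in the 43 members with CGGAAG (7 called lower) and -0.18 in the 20 without it (2 called lower). Beside these counts, 10.5% of all tested genes were called lower.

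Rps2, a small subunit protein near the mRNA entry channel, had the lowest adjusted p of the members. It was at 962, 879 and 873 CPM in the Stag2KO libraries and 1179.6, 1598 and 1290.0 CPM in the Stag2WT libraries. The groups were clear of each other, with Stag2WT replicate 2 again the highest (log2 fold change -0.58, SE 0.12, adjusted p = 0.0120). Its call held in all 6 fits that left out 1 library, with adjusted p from 0.0112 to 0.0424. It was the one called member of which this was true.

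The acidic stalk of the large subunit, on which translation factors dock, is made of Rplp0 with Rplp1 and Rplp2. Rplp1 was at 866, 734 and 734 CPM in the Stag2KO libraries and 1052, 1272 and 990.1 CPM in the Stag2WT libraries. All 3 Stag2KO values were below the lowest Stag2WT value, that of replicate 3 (log2 fold change -0.51, SE 0.11, adjusted p = 0.0189). Rplp2 was at 528, 529 and 564 CPM in the Stag2KO libraries and 627, 718 and 622 CPM in the Stag2WT libraries (log2 fold change -0.28, SE 0.08, adjusted p = 0.0397). Rplp0, which anchors the others to the rRNA, was at 1333, 1636 and 1625 CPM in the Stag2KO libraries and 1887, 2309 and 1823 CPM in the Stag2WT libraries and did not pass (log2 fold change -0.39, SE 0.12, adjusted p = 0.0555). It ran against the usual order within Stag2KO, since replicate 1 was the lowest library and not the highest. The Rplp1 call was lost without Stag2KO replicate 2 (0.0636) or Stag2KO replicate 3 (0.0634), adjusted p in parentheses. The Rplp2 call was lost without any one of the 6 libraries, with adjusted p from 0.0542 to 0.111.

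Among other large subunit genes, Rpl11, a sensor of ribosome assembly through Mdm2, was at 391, 386 and 378 CPM in the Stag2KO libraries and 454, 534 and 449.7 CPM in the Stag2WT libraries. The groups did not overlap (log2 fold change -0.31, SE 0.08, adjusted p = 0.0288). Its call was lost without any one of Stag2KO replicate 1 (0.0686), Stag2KO replicate 2 (0.0757) and Stag2KO replicate 3 (0.0947). Its partner Rpl5 was at 451, 386 and 378 CPM in the Stag2KO libraries and 436, 499 and 425 CPM in the Stag2WT libraries, with overlapping groups, and did not pass (log2 fold change -0.16, SE 0.09, adjusted p = 0.239). Rpl35a, a Diamond-Blackfan gene, was at 295, 307 and 311 CPM in the Stag2KO libraries and 352, 403 and 342 CPM in the Stag2WT libraries. These values were separated by genotype (log2 fold change -0.27, SE 0.08, adjusted p = 0.0428), but the call was kept in just 1 of the 6 fits without a library, that without Stag2WT replicate 3, and had adjusted p up to 0.120 in the others. Rpl36 was at 227, 229 and 231 CPM in the Stag2KO libraries and 270.4, 338 and 272 CPM in the Stag2WT libraries (log2 fold change -0.36, SE 0.09, adjusted p = 0.0290), with Stag2KO libraries nearly equal. Its call was lost without any one of Stag2KO replicate 1 (0.0762), Stag2KO replicate 2 (0.0760) and Stag2KO replicate 3 (0.0732). Rpl36 and the small subunit gene Rps21 lay outside the rule for named genes and are given because they passed.

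Rpl29 had one of the largest estimates without passing. It was at 157, 129.7 and 212 CPM in the Stag2KO libraries and 243, 294 and 242 CPM in the Stag2WT libraries. The groups did not overlap, but Stag2KO replicate 3 was far above replicate 2 (log2 fold change -0.64, SE 0.19, adjusted p = 0.0530). Without Stag2KO replicate 3 the adjusted p was 0.0052. In every other fit without 1 library Rpl29 did not pass, with adjusted p from 0.0845 to 0.163. Rpl4, the most abundant member by CPM, was at 2233, 2204 and 2202 CPM in the Stag2KO libraries and 2418, 2792 and 2422 CPM in the Stag2WT libraries, with separate groups and no call (log2 fold change -0.20, SE 0.09, adjusted p = 0.143). Rpl37a (-0.06, adjusted p = 0.759), Rpl10a (-0.07, adjusted p = 0.666) and Rpl3 (-0.10, adjusted p = 0.474), which lies near the peptidyl transferase centre, had small log2 fold changes and did not pass. Rpl10 (-0.21, adjusted p = 0.130), Rpl13a (-0.24, adjusted p = 0.113), Rpl22 (-0.13, adjusted p = 0.331) and Rpl38 (-0.23, adjusted p = 0.0777), known for its part in translating Hox mRNAs, did not pass either.

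In the small subunit, Rps15a was at 497, 440.3 and 441 CPM in the Stag2KO libraries and 557, 675 and 546 CPM in the Stag2WT libraries. The groups were separate (log2 fold change -0.37, SE 0.10, adjusted p = 0.0334), and the call was lost without any one of Stag2KO replicate 2 (0.100), Stag2KO replicate 3 (0.105) and Stag2WT replicate 2 (0.0656). Rps21 was at 279, 282 and 307 CPM in the Stag2KO libraries and 345, 404 and 329 CPM in the Stag2WT libraries (log2 fold change -0.31, SE 0.09, adjusted p = 0.0387). Rps7, which like Rpl11 can bind Mdm2, was at 466, 418 and 424 CPM in the Stag2KO libraries and 517, 608 and 498 CPM in the Stag2WT libraries (log2 fold change -0.31, SE 0.09, adjusted p = 0.0437). Neither group pair overlapped, but each call survived just 1 of the 6 fits without a library, that without Stag2WT replicate 3. Adjusted p reached 0.108 for Rps21 and 0.129 for Rps7 in the others.

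Members with well known roles in the small subunit stayed short of the threshold. Rps6, the substrate of the S6 kinases, had 442, 456 and 455 CPM in the Stag2KO libraries and 482, 567 and 490.3 CPM in the Stag2WT libraries, with separate groups (log2 fold change -0.19, SE 0.08, adjusted p = 0.124). Rps14, whose loss is tied to the anaemia of the human 5q- syndrome, had 728, 581 and 586 CPM in the Stag2KO libraries and 637, 741 and 605 CPM in the Stag2WT libraries. Its Stag2KO replicate 1 was close to the highest Stag2WT library (log2 fold change -0.07, SE 0.11, adjusted p = 0.708). Rps28 had 135, 91.0 and 94.6 CPM in the Stag2KO libraries and 99.5, 125 and 104 CPM in the Stag2WT libraries, with Stag2KO replicate 1 above all 3 Stag2WT libraries (log2 fold change -0.03, SE 0.17, adjusted p = 0.899). Rps3a, which was chosen after its values were seen, had a single low library: 914, 595 and 850.0 CPM in the Stag2KO libraries and 963, 1116 and 927 CPM in the Stag2WT libraries (log2 fold change -0.35, SE 0.16, adjusted p = 0.156). Rpsa (-0.18, adjusted p = 0.201), Rps3 (-0.21, adjusted p = 0.147) and the X-linked Rps4x (-0.17, adjusted p = 0.198), the other abundant ones, were close to the median of the members.

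The genes mutated in Diamond-Blackfan anaemia had log2 fold changes from -0.37 for Rps15a to -0.03 for Rps28. All 20 tested were negative, 4 fell (Rpl11, Rpl35a, Rps7 and Rps15a, above) and 16 did not pass, beside the 10.5% of all tested genes called lower, with a median log2 fold change of -0.21. Rps19, the one most often mutated in patients, was at 524, 458 and 459 CPM in the Stag2KO libraries and 511, 622 and 507 CPM in the Stag2WT libraries. The groups overlapped through Stag2KO replicate 1 and the interval reached from -0.42 to 0.04 (log2 fold change -0.19, adjusted p = 0.208). Others that did not pass included Rps10 (-0.27, adjusted p = 0.0720), Rps26 (-0.16, adjusted p = 0.396) and Rps24 (-0.12, adjusted p = 0.347). Rpl15 (-0.26, adjusted p = 0.0870), Rpl26 (-0.22, adjusted p = 0.0977), Rpl31 (-0.16, adjusted p = 0.368) and Rpl35 (-0.24, adjusted p = 0.192) had log2 fold changes between those of Rps10 and Rps24.

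Paralogs, some of which replace a standard ribosomal protein in certain tissues, held 3 of the 12 lower calls and the one higher call, from 7 tested, where 10.5% of all genes fell and 10.7% rose. Rps27l, a p53 target and close copy of Rps27, was at 89.0, 84.2 and 83.7 CPM in the Stag2KO libraries and 103, 125 and 103 CPM in the Stag2WT libraries (log2 fold change -0.36, SE 0.09, adjusted p = 0.0208). The groups did not overlap. Its parent Rps27 did not pass (-0.16, adjusted p = 0.247), and per 100 Rps27 reads there were 21.0, 23.2 and 21.8 Rps27l reads in Stag2KO and 24.3, 25.5 and 25.9 in Stag2WT. Rpl22l1, the counterpart of Rpl22, was at 92.9, 90.1 and 91.0 CPM in the Stag2KO libraries and 107, 123 and 108 CPM in the Stag2WT libraries (log2 fold change -0.30, SE 0.07, adjusted p = 0.0189). Per 100 Rpl22 reads there were 23.6, 24.8 and 25.3 Rpl22l1 reads in Stag2KO and 27.7, 26.7 and 28.7 in Stag2WT, so in both pairs the ratio was lower in every Stag2KO library. Per 100 Rpl7 reads there were 13.8, 12.4 and 12.5 Rpl7l1 reads in Stag2KO and 11.97, 11.1 and 12.7 in Stag2WT, and per 100 Rpl36a reads 38.4, 45.7 and 47.9 Rpl36al reads against 44.7, 44.6 and 45.6, both with overlapping groups. These ratios were not tested. Both calls were lost without Stag2KO replicate 2 (adjusted p 0.0642 for Rps27l and 0.0605 for Rpl22l1) or Stag2KO replicate 3 (0.0642 and 0.0621).

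The other paralogs were expressed at lower levels or did not pass. Rps4y2 was at 4.46, 7.62 and 4.35 CPM in the Stag2KO libraries and 11.4, 8.62 and 12.6 CPM in the Stag2WT libraries, the groups did not overlap, and Stag2KO replicate 2 and Stag2WT replicate 2 were near each other (log2 fold change -0.99, SE 0.25, adjusted p = 0.0288). That call was lost without any one of Stag2KO replicate 1 (0.0825), Stag2KO replicate 3 (0.0761), Stag2WT replicate 1 (0.0697) and Stag2WT replicate 3 (0.0786). Rpl3l, a striated muscle paralog of Rpl3, had 22, 44 and 38 reads in Stag2KO and 17, 13 and 11 in Stag2WT. At 0.754, 1.20 and 0.995 CPM in the Stag2KO libraries and 0.473, 0.371 and 0.322 CPM in the Stag2WT libraries it was the one member that rose (log2 fold change 1.34, SE 0.30, adjusted p = 0.0173), at a level far below the Rpl3 level in the same libraries, and the call was lost without any one of Stag2KO replicate 2 (0.0590), Stag2WT replicate 2 (0.0583) and Stag2WT replicate 3 (0.0536). Rpl7l1 (-0.14, adjusted p = 0.172) and Rpl36al (-0.21, adjusted p = 0.0928) did not pass. Rpl39l, a testis paralog of Rpl39, had 1, 23 and 2 reads in Stag2KO and 9, 21 and 16 in Stag2WT and did not pass (-0.82, adjusted p = 0.530).

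Reads per gene also depend on length and on copies elsewhere in the genome. Per kilobase of the shortest principal coding transcript (GENCODE M21), the Stag2WT level of core genes ran from 115 CPM per kb for Rpl35 through a median of 778 to 2214 for Rplp1, and the median was 942 for small and 695 for large subunit genes. Reads that align to more than 1 place, 23.4% to 28.6% of a table total, are left out of gene counts. Many of these genes have processed pseudogenes, so single levels are uncertain. The 52 members with -ps rows had a median log2 fold change of -0.21 (5 lower), and the 32 tested ones without had -0.22 (7 lower, 1 higher). Summing each gene with its -ps rows left 12 lower (10.6% of all genes) and 1 higher. Across the 76 core genes, the log2 fold change had a Pearson r of 0.12 with transcript length and -0.22 with its GC content, given as a description over genes that share the 6 libraries.

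Genes outside the set that resemble it in length had medians nearer to 0. Tested non-members with a coding transcript under 1 kb numbered 979, with a median log2 fold change of -0.11. The 120 of them with a mean of at least 100 CPM had a median of -0.12. Of these 120, 23 were called lower (19.2%) and 15 higher (12.5%). The shares were 14.3% and 1.19% of the members and 10.5% and 10.7% of all tested genes. Ribosomal proteins with other symbols, Fau (-0.17, adjusted p = 0.184) and Gnb2l1, the current Rack1 (-0.13, adjusted p = 0.339), did not pass, and both had overlapping groups.

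Other TOP mRNAs, mostly of translation factors, were also lower in estimate. Of 23 tested, 22 estimates were negative, 4 fell and 19 did not pass, beside the 10.5% of all genes called lower, with a median log2 fold change of -0.17. Eef1d, a subunit of the exchange factor that recharges eEF1A, was at 179, 189 and 186 CPM in the Stag2KO libraries and 234, 282 and 228 CPM in the Stag2WT libraries (log2 fold change -0.42, SE 0.09, adjusted p = 0.0133). The groups did not overlap, and the call held in all 6 fits without a library. Its partner Eef1g (-0.27, adjusted p = 0.0475), the nucleolar histone chaperone Npm1 (-0.30, adjusted p = 0.0390) and the poly(A)-binding Pabpc4 (-0.29, adjusted p = 0.0485) also fell. The Eef1g and Pabpc4 calls were lost without any one library (adjusted p from 0.0521 to 0.146 and from 0.0599 to 0.155). The Npm1 call was kept only without Stag2WT replicate 1, with adjusted p of 0.0612 to 0.125 in the others.

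Factors that carry and assemble ribosomal proteins had a list median nearer to 0. Of 17 tested chaperones and import factors 2 fell (10.5% of all genes did), Ipo5 (-0.33, adjusted p = 0.0179), an importin, and Bccip (-0.32, adjusted p = 0.0204), with a list median of -0.13. Both calls were lost without Stag2KO replicate 1 (adjusted p 0.0651 and 0.0502) or Stag2KO replicate 3 (0.0635 and 0.0791). Ddx21 did not pass (-0.22, adjusted p = 0.0641). Of 14 genes of RNA polymerase I, which makes rRNA, Polr1d fell (-0.32, adjusted p = 0.0187), a call lost without Stag2KO replicate 1 (0.0628) or Stag2KO replicate 2 (0.0552), and the list median was -0.09.

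Signalling and surveillance genes had list medians near 0. Their calls are given beside 10.5% of all tested genes called lower and 10.7% called higher. Among 17 mTORC1 pathway genes Rptor, the scaffold of the complex, rose (0.26, adjusted p = 0.0327) and 16 did not pass, with a median of 0.01. That call was lost without any one library (adjusted p from 0.0511 to 0.0977). Of 12 genes of the Mdm2 and p53 axis Sesn2, a stress-induced regulator of mTORC1, fell (-0.76, adjusted p = 0.00509), in all 6 fits without a library as well, and the list median was 0.08. Mdm4 (0.27, adjusted p = 0.0710) and Trp53 itself (0.13, adjusted p = 0.164) did not pass. Of 13 ribosome rescue genes, Edf1 (-0.36, adjusted p = 0.0194), which binds collided ribosomes, and Hbs1l (-0.23, adjusted p = 0.0446) fell and the kinase gene Eif2ak4 (0.35, adjusted p = 0.0215) rose, with a median of -0.05. The Edf1 call was lost without Stag2KO replicate 2 (0.0656) or Stag2KO replicate 3 (0.0501), the Eif2ak4 call without any one of Stag2KO replicate 2 (0.0667), Stag2KO replicate 3 (0.0720), Stag2WT replicate 1 (0.0636) and Stag2WT replicate 2 (0.0598), and the Hbs1l call without any one library (adjusted p from 0.0531 up to 0.16).

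Mitochondrial ribosomal protein genes, which encode the separate ribosome of that organelle and are not TOP mRNAs, had a like median. They received 0.293%, 0.305% and 0.290% of gene reads in Stag2KO (0.296% ± 0.00797, SD, n = 3) and 0.315%, 0.360% and 0.323% in Stag2WT (0.333% ± 0.0242, SD, n = 3). The groups did not overlap and Stag2WT replicate 2 was again the highest. Of 78 tested, 23 fell and 55 did not pass, with 68 negative estimates and a median log2 fold change of -0.22, beside the 10.5% of all genes called lower. Among them were Mrps23 (-0.37, adjusted p = 0.00989), Mrpl28 (-0.45, adjusted p = 0.0115) and Mrpl50 (-0.33, adjusted p = 0.0137). The first 2 calls held in all 6 fits without a library, and that of Mrpl50 was lost without Stag2KO replicate 2 (0.0516) or Stag2KO replicate 3 (0.0510). Stag2WT replicate 2 was the highest library for 67 of the 78, beside 4224 of the 15708 tested genes.

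**Figure D5:**
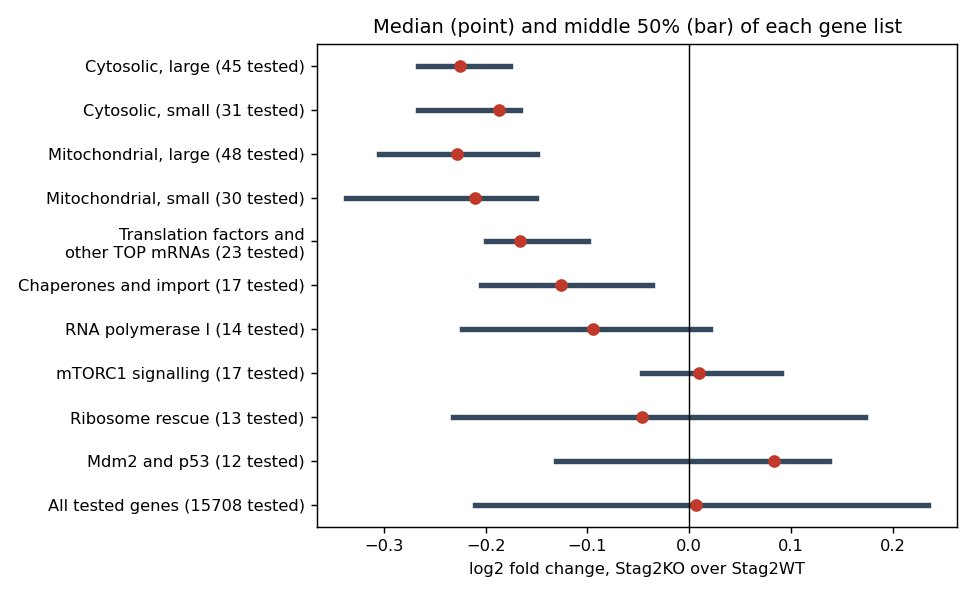
Median (point) and middle 50% (bar) of the log2 fold change, Stag2KO over Stag2WT, for the core cytosolic ribosomal proteins, the mitochondrial ones, the other gene lists and all tested genes. Cytosolic and mitochondrial ribosomal proteins have medians from -0.23 to -0.19, while the mTORC1, rescue and p53 lists straddle 0.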

How the data were processed

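RNA from 3 Stag2KO and 3 Stag2WT samples of lineage-depleted mouse marrow was sequenced. The authors deposited their raw counts as 1 table, with a row per gene symbol and no normalization. The submitters' processing notes name STAR 2.4, HTSeq 0.6.1, DESeq2 and the build mm9. No annotation or strand setting is given in the sources used here, so reads of a gene and of an antisense or overlapping one cannot be separated. Library sizes and tests leave out the 5 summary rows that name no gene. Ambiguous reads made up 2.02% to 2.20% of a table total.

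All gene rows were fitted together with edgeR 4.0.16 in R 4.3.3 (TMM factors, filterByExpr, robust quasi-likelihood fit, Benjamini-Hochberg adjustment over 15708 genes, called at adjusted p under 0.05). Rows of members, of the marker and other gene lists, of Stag2 and of Neat1 were read from that fit. Counts and medians over all genes and over short non-members came from it too. CPM values use the TMM factors. Reads were deep enough that counting error is small for core genes; intervals are 95% and cover the spread between libraries. All libraries were kept, since counts differed between replicates beyond counting noise. Replicates were numbered in the order of the labels and the numbers only name samples.

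Members, gene lists and the rule for named genes were chosen with earlier results of these data known. The rule took the members with the 6 smallest p-values, the 6 highest and 6 lowest log2 fold changes at a mean of at least 5 CPM, the 5 most abundant, the largest spread within a group, the paralogs, the stalk genes, a set with known roles, the Diamond-Blackfan genes and up to 3 genes of smallest p per pathway list. Alternatives were other scalings, filters, tools (DESeq2 1.42.0, limma-voom 3.58.1), a covariate, pseudogene rows added, and each library left out. The fit was tested on simulated data. All 85 symbols matched RefSeq, 64 had a promoter entry and 83 a transcript length. Protein sequences were not used here. Results for some genes are not reported here.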

Additional observations from a re-analysis of the deposited data

How the results depend on the processing

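Calls were not stable, and the sign of estimates that were not called could change too. Of 84 members, 82 had a negative estimate as reported and 78 to 83 with 1 library left out. With the share of reads outside annotated genes as a covariate the number was 54. Over 17 alternatives, none of the 48 members tested one by one changed sign where it was called, but of their values under alternatives 70 lost and 16 gained a call while 727 kept their side of the threshold. The number of members called lower, 12 as reported, was 30 with DESeq2 (20 large and 10 small subunit), 0 with the share of reads outside annotated genes as a covariate (0 large, 0 small), 2 to 11 with 1 library left out (1 to 6 large, 1 to 5 small) and 5 without both Stag2KO replicate 1 and Stag2WT replicate 2 (1 large), a setting chosen after the data were seen. Calls over all tested genes shifted too. The share called lower was 10.5% as reported, 13% with DESeq2 and 0.146% with the covariate. It was 5.65% to 8.18% with 1 library left out and 4.32% without both. The 1 member called higher, Rpl3l, became 0 with the covariate, 0 to 1 with 1 library left out and 0 without both. A filter of at least 5 CPM in at least 3 libraries removed Rpl3l before the test, since it was under that level in every library. Scaling by total gene reads gave 8 lower (8.38% of all genes), with a median over all genes of 0.05 and medians of -0.18 for large and -0.14 for small subunit genes. Under the covariate the median was -0.0711 for large and -0.0330 for small subunit genes, and 67 genes were called in all against 3333; with 1 library left out the number was 1967 to 2548, and without both 1301. Fewer samples enter the fits with libraries left out; the cause of the other shifts was not tested. The difference in the ratio of large to small subunit reads, -0.00637, was -0.0210 to 0.0105 with 1 library left out and turned positive only without Stag2KO replicate 1. No paired analysis was possible because the replicate numbers were given in the order of the labels and pair no samples. Depth limits only the rarest members, such as Rpl3l, Rpl39l and Rps4y2.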
